A study of Mus musculus with 10 samples.

Results

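The 10 genes described here code for the IL-12 and IL-27 cytokines and their receptors: Il12a, Il12b, Il23a, Il27 and Ebi3 for the cytokine chains, and Il12rb1, Il12rb2, Il23r, Il27ra and Il6st for the receptor chains. Each was read by 1 probe set, out of 23410 probe sets tested on the array and 19938 genes with a probe set of their own. The genes were listed by name. Where a gene has several probe sets, the probe set is selected on its mean over all 10 arrays, but each of these genes has only 1, so this step made no choice. The family was put together when earlier results of these arrays, the lower Il12a among them, were known, so the difference of Il12a is a description and supports nothing further.

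These cytokines are pairs of different chains, and they share both ligand and receptor parts. Il12a with Il12b forms IL-12, Il23a with Il12b forms IL-23, Il27 with Ebi3 forms IL-27, and Il12a with Ebi3 forms IL-35. IL-12 is sensed by Il12rb1 and Il12rb2, IL-23 by Il12rb1 and Il23r, and IL-27 by Il27ra together with gp130, the product of Il6st, which also serves the IL-6 family. The receptors signal through Janus kinases and STAT factors. IL-12 and IL-23 are best known as products of dendritic cells and macrophages that act on T and NK cells, while IL-27 is also known to act on haematopoietic stem cells (HSCs).

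RNA came from HSCs of 8-week-old mice, double-sorted from bone marrow as CD150+CD48-Lineage-Sca1+cKit+, with 10000 cells in each aliquot. The transgenic group (5 arrays) carried (tetO)7CMVSox17-IRES-NucEGFP, a doxycycline-controlled Sox17 with a nuclear green fluorescent reporter, and the allele Gt(ROSA)26Sortm1(rtTA*M2)Jae, which makes the activator from the widely active ROSA26 locus, so the transgene is not limited to HSCs. The other group (5 arrays) was wild-type littermates, and both groups drank doxycycline at 2 mg/ml for 5 days. The comparison asks what induced Sox17, a transcription factor of fetal HSCs, endoderm and arteries, does to gene expression in adult HSCs. The labels call the aliquots independent without naming the animals, so p-values here reflect only how much these samples vary, and part of that may be technical.

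All 11 measured genes of an HSC marker list of 12 lay above the median level of the tested probe sets. Sox17 itself read 4.25 to 4.51 log2 units on the transgenic and 4.02 to 4.30 on the wild-type arrays. Transgenic arrays 3, 4 and 5 lay within the wild-type range. Whether this probe set covers the part of Sox17 that the transgene carries is not known, so the reading checks neither the induction nor the labels, on which every direction below rests. Deviations from the group means parted the arrays into 2 sets (first principal component, 40.1% of their variance): transgenic arrays 1, 2 and 3 with wild-type arrays 1 and 2 formed set A, and transgenic arrays 4 and 5 with wild-type arrays 3, 4 and 5 formed set B. Transgenic array 4 alone read as male (Xist at 4.32, against 10.8 to 11.4 on the other 9 arrays). Values are given with the sets as a block and without that array where this matters.

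Il12a differed most, and the upstream sequences of its start sites are shown with that of Il6st, the gene with the next largest difference, and of Ebi3, which held a motif match and differed little. RefSeq (GRCm38.p6) sequences were at hand for 6 of the 10 genes, Il12a with 2 start sites that its probe set does not tell apart. Each run is the 250 bases before a start, on the plus strand, in lower case. Capitals would mark the SOX core ACAAT or the STAT-type motif TTCNNNGAA on either strand; a match of one motif may overlap a match of the other.

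Il12a, first start, chr3:68690394-68690643: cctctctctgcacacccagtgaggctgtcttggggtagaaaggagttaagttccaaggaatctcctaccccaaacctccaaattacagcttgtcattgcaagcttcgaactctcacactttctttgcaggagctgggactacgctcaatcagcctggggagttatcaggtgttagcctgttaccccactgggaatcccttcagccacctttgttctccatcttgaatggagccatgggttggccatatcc

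Il12a, second start, chr3:68691174-68691423: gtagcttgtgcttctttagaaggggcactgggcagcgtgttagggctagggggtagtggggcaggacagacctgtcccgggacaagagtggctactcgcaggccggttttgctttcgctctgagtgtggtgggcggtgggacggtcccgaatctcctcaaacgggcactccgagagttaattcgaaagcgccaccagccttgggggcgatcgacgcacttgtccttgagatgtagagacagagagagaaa

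Il6st, chr13:112463820-112464069: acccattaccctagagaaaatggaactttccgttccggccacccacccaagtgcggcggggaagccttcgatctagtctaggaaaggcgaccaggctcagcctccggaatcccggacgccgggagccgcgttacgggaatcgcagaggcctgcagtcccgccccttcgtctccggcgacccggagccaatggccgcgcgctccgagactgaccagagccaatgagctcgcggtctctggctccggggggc

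Ebi3, chr17:55952373-55952622: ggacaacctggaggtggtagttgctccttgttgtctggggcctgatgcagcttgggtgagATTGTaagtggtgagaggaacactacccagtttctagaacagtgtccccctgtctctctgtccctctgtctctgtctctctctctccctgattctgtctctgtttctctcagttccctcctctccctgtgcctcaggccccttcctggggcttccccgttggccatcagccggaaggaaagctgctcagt

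Both Il12a windows and the Il6st window held neither motif. The Ebi3 window held ACAAT once, on the opposite strand, and the Il12rb2 window, not shown, held TTCNNNGAA once. Among all 32851 RefSeq windows of this length, 27.7% held ACAAT and 7.02% held TTCNNNGAA. A match or its lack says only whether these letters are present.

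**Figure D1:**
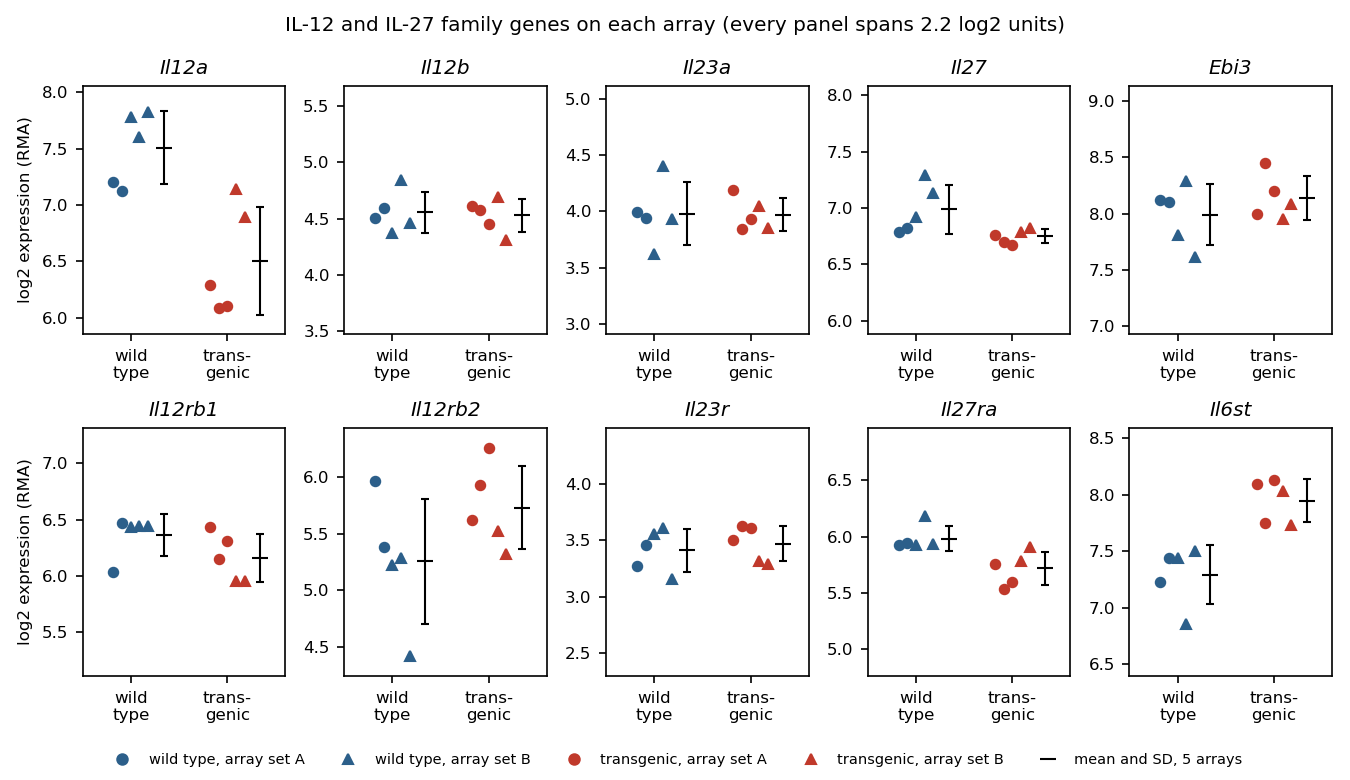
Log2 expression of the 10 genes (vertical axes) on the 5 wild-type (blue) and 5 transgenic (red) arrays, with circles for array set A and triangles for set B; black marks show the mean and SD. Il12a was lower and Il6st higher on the transgenic arrays, and within each array set the Il12a values of the groups did not overlap.

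Il12a, the cytokine chain shared by IL-12 and IL-35, was lower on the transgenic arrays by about 1 log2 unit. It read 6.29, 6.09, 6.10, 7.14 and 6.89 log2 units on transgenic arrays 1 to 5 and 7.20, 7.13, 7.78, 7.60 and 7.82 on wild-type arrays 1 to 5. The groups touched at a single point: transgenic array 4 lay just above wild-type array 2, and all other transgenic arrays lay below every wild-type array. The means were 6.50 ± 0.48 and 7.51 ± 0.33 (SD, n = 5 each). The difference of -1.0 (SE 0.23), a 2.01-fold lower level, had an adjusted p of 0.176 (limma, Benjamini-Hochberg over all tested probe sets), above the threshold of 0.05.

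The level of Il12a also followed the array sets. In set A the transgenic arrays read 6.09 to 6.29 and those of the wild type 7.13 to 7.20, and in set B 6.89 to 7.14 and 7.60 to 7.82. The groups were thus apart in either set, by -1.0 and -0.72, and set B was 0.71 (SE 0.10) higher than set A with the group in the model. With the set as a block the difference was -0.86 (SE 0.10) and passed the threshold (limma, adjusted p = 0.00473); without transgenic array 4 as well it was -0.94 (adjusted p = 0.00651). The sets were defined from these arrays' own values, which lowers the residual spread by construction.

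Il12a is usually studied in dendritic cells and macrophages, and the signal of most of their markers was below the median of the array. Of 15 such markers 14 were measured, 2 of them above the median level, and 0 passed the threshold or an unadjusted p of 0.05 (limma). The mean level of these markers was 4.84 to 5.08 in transgenic samples, against a wild-type range of 4.90 to 5.11. Of the markers below the median, Zbtb46, Itgax and Xcr1, picked after their values were seen, averaged 4.87, 4.29 and 3.81. These lay at percentiles 33.2, 23.1 and 15.6 of probe set signal. The 2 markers above the median were Cd68 at 7.24 (percentile 74.0) and Cd74 at 6.08 (55.1). Megakaryocyte markers did move with the groups: the mean of 8 measured genes of 10 was 6.21 to 6.47 on the transgenic and 6.73 to 7.29 on the wild-type arrays, with none of the 8 at the array's floor, and Pf4, the platelet chemokine, fell by 2.53 on the log2 scale (limma, adjusted p = 0.0112). Of these 8 genes 7 had negative differences, against 12582 of 23410 tested probe sets. At an unadjusted p under 0.05 (limma) 6 were lower and 1 was higher, a level reached in either direction by 6.59% of all tested probe sets. The higher one was the integrin chain Itgb3, at 0.60 (SE 0.23, limma, unadjusted p = 0.0221, adjusted p = 0.600). The part of these markers in the Il12a and Il6st differences was not tested, and in bulk samples fewer cells of a type and less RNA per cell cannot be told apart.

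The partner chains of Il12a gave smaller differences. Il12b, the chain it needs to form IL-12, read 4.31 to 4.69 (median 4.58) on the transgenic and 4.37 to 4.84 (median 4.51) on the wild-type arrays, at percentile 27.4 of signal among tested probe sets. Such percentiles rank the signal of probe sets, which bind RNA unequally, and do not order the genes by expression. Its difference of -0.03 (SE 0.11) was smaller than the spread between arrays. Il23a, the specific chain of IL-23, had its signal at percentile 18.2, with 3.84 to 4.19 on the transgenic and 3.62 to 4.40 on the wild-type arrays and a difference of -0.01 (SE 0.13). The signs of these 2 differences turned under other settings, including array weights. RMA compresses differences between low signals, so a change in either gene could go unseen.

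Ebi3, the partner of Il12a in IL-35 and of Il27 in IL-27, had its signal at percentile 84.5. It read 8.00, 8.44, 8.20, 7.96 and 8.08 on transgenic arrays 1 to 5 and 8.12, 8.11, 7.81, 8.29 and 7.62 on wild-type arrays 1 to 5. The groups overlapped widely, and the difference of 0.15 (SE 0.14) did not pass (limma, adjusted p = 0.947). Leaving out wild-type array 5 gave 0.05, leaving out transgenic array 2 gave 0.07 and leaving out wild-type array 4 gave 0.22, so its size rested on single arrays.

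Il27, the specific chain of IL-27, was slightly lower on the transgenic arrays and had a smaller spread there (SD 0.06 against 0.22). It read 6.67 to 6.83 (median 6.76) on the transgenic arrays and 6.79, 6.82, 6.92, 7.29 and 7.13 on wild-type arrays 1 to 5. The overlap was between wild-type arrays 1 and 2, both of set A, and transgenic arrays 4 and 5, both of set B. Within either set the groups did not overlap. In set A the highest transgenic value was 6.76 and the lowest wild-type value 6.79, and in set B 6.83 and 6.92. The difference was -0.24 (SE 0.10; limma, adjusted p = 0.730), with -0.09 in set A and -0.31 in set B.

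The chains of the IL-27 receptor differed in opposite directions. Il6st, which codes for the signalling chain gp130, read 8.09, 7.75, 8.13, 8.03 and 7.73 on transgenic arrays 1 to 5 and 7.22, 7.44, 7.44, 6.86 and 7.50 on wild-type arrays 1 to 5. Every transgenic array lay above every wild-type array. The means of 7.95 ± 0.19 and 7.29 ± 0.27 (SD, n = 5 each) gave a difference of 0.65 (SE 0.14), a 1.57-fold higher level that missed the threshold (limma, adjusted p = 0.132, or 0.104 when the set was a block). Set A gave 0.66 and set B gave 0.62.

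Il27ra, the ligand-specific chain of that receptor, read 5.76, 5.54, 5.60, 5.78 and 5.91 on transgenic arrays 1 to 5 and 5.93, 5.94, 5.92, 6.19 and 5.93 on wild-type arrays 1 to 5. The groups did not overlap, but the highest transgenic and the lowest wild-type value were only 0.016 log2 units apart. The difference was -0.26 (SE 0.09; limma, adjusted p = 0.517), and it was -0.21 without wild-type array 4, the highest. Without that array the difference of Il6st was 0.55, and the same array was the lowest for Il6st.

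Il12rb1, the receptor chain common to IL-12 and IL-23, gave unlike differences in the array sets. In set B it read 5.95 on both transgenic arrays, below the wild-type 6.43 to 6.45, a difference of -0.49. In set A the transgenic arrays, at 6.15 to 6.43, lay within the range of the wild-type arrays, 6.03 and 6.47, with a difference of 0.04. The low value was that of wild-type array 1, while the other wild-type arrays of both sets read 6.43 to 6.47. The set A difference thus rests on that single array. The difference between the sets was -0.53 (SE 0.20) and did not pass (limma interaction term, unadjusted p = 0.0249, adjusted p = 1.00). Over all arrays Il12rb1 differed by -0.21 (SE 0.12; limma, adjusted p = 0.884).

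Il12rb2, the signalling chain of the IL-12 receptor, varied most among the receptor chains. It read 5.63, 5.93, 6.26, 5.52 and 5.32 on transgenic arrays 1 to 5 and 5.97, 5.38, 5.23, 5.28 and 4.42 on wild-type arrays 1 to 5. The groups overlapped, with wild-type array 5 far below the rest, and the difference of 0.48 (SE 0.26; limma, adjusted p = 0.841) dropped to 0.27 without that array. Set B was -0.61 (SE 0.19) relative to set A, the opposite sign to Il12a. Il23r, the specific chain of the IL-23 receptor, read 3.29 to 3.63 on the transgenic and 3.16 to 3.61 on the wild-type arrays, at the 10.6 percentile, and its difference of 0.06 (SE 0.11) changed sign between the sets. It was the 1 gene of the 10 whose mean lay below the 20th percentile of all values in the table, 3.73.

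**Figure D2:**
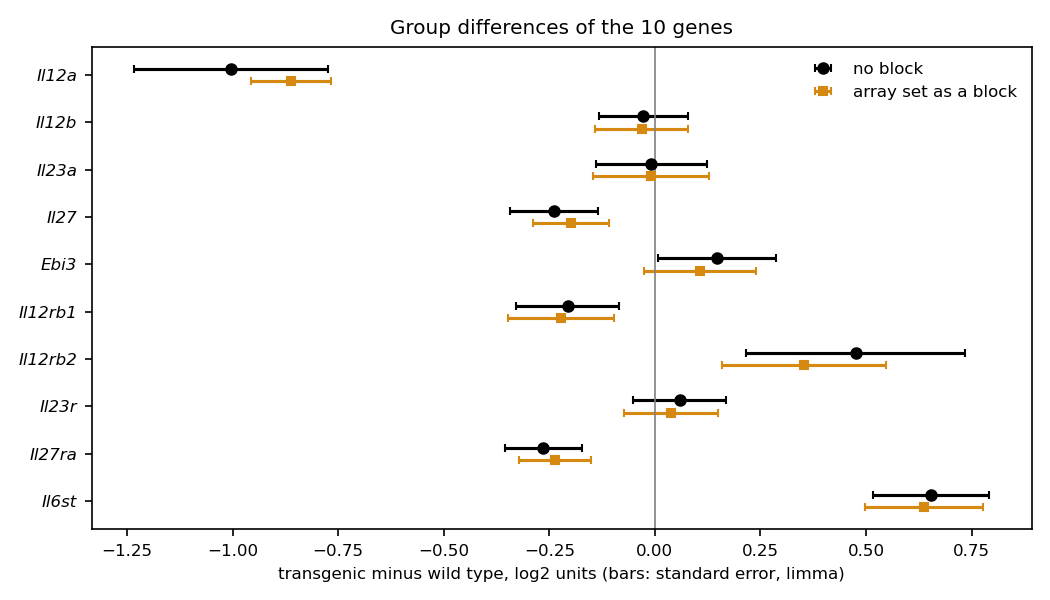
Log2 difference, transgenic minus wild type (horizontal axis), of the 10 genes with its limma standard error: black circles show the fit without a block, orange squares that with the array set as block. Il12a lies at -1.0 and -0.86 and Il6st at 0.65 and 0.64, while Il12b, Il23a and Il23r lie near 0.

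Across the family 0 of 10 genes passed the threshold, against 0.141% of all tested probe sets (33 of 23410). With the array set as a block 1 of 10 passed, Il12a, against 0.389%. An unadjusted p under 0.05 was reached by 4 of 10, Il12a, Il27 and Il27ra lower and Il6st higher, against 6.59%. The groups did not overlap in 2 of 10, Il6st and Il27ra, against 1.47%. These shares describe a family chosen with Il12a known and are not evidence about families in general. The median difference of the 10 genes was -0.02, against -0.01 over all tested probe sets.

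Within groups, the genes varied together only in part. Of 45 pairs, Il12b and Il23a had the highest correlation of their deviations from the group means (Pearson r = 0.82 over 10 arrays), both below the median level. Il12a ran opposite to Il12rb2 (r = -0.71), and the sign of their array set differences was opposite too. Il27 and Il27ra ran together (r = 0.67). These are descriptions over arrays that share their set.

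The genes whose deviations were most like those of Il12a, among 9884 genes above the median level, were Fmnl1 (r = 0.99), Eloc (0.98) and Nsfl1c (0.98), over 10 arrays. Their own group differences were 0.04, -0.21 and -0.08, so they shared the variation of Il12a within the groups and little of its difference between them. For Il6st the closest were Fbxo30 (r = 0.94), Zc3h6 (0.93) and Capza2 (0.93), and for Il27ra 9230110K08Rik (0.97), Fbxo17 (0.95) and Trip10 (0.93). For Il27 they were Enoph1 (r = 0.98), Plcb3 (0.97) and Mir697 (0.97), for Ebi3 Dmpk, Tex44 and B3gnt7 (0.88 to 0.89), and for Il12rb1 Cavin3, Tmem47 and Gm10272 (all 0.93). They are the highest of all the values computed and carry no test. The deviations also hold the difference between the array sets, which was not removed.

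Downstream of these receptors, 1 of 17 measured genes of the JAK-STAT list (18 listed) passed the threshold as higher and 0 as lower. Among all tested probe sets 0.141% passed in either direction. The gene that passed was Cish, a feedback inhibitor induced by STAT5, which is not the main STAT of this family. It read 7.63, 6.98, 7.88, 7.50 and 7.91 on transgenic arrays 1 to 5 and 6.09, 6.52, 6.72, 6.59 and 6.37 on wild-type arrays 1 to 5, without overlap. The difference was 1.12 (SE 0.18; 2.17-fold, limma, adjusted p = 0.0447). The call was lost in 18 of 23 other settings (adjusted p of 0.00485 to 0.355 over all 23), and leaving out any 1 array other than transgenic array 2 ended it.

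The other members of that list did not pass. Stat3, used by the IL-23 and IL-27 receptors, differed by 0.26 (SE 0.11), Socs3, a feedback inhibitor that binds gp130, by 0.24 (SE 0.12), and Stat4, the main STAT of IL-12, by 0.33 (SE 0.19), with limma adjusted p of 0.681 to 0.882. The list's median difference was 0.14, against -0.01 over all tested probe sets, with 14 of 17 differences positive, against 10828 of 23410. At an unadjusted p under 0.05 were 2 of the 17, against 6.59% of all tested probe sets.

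**Figure D3:**
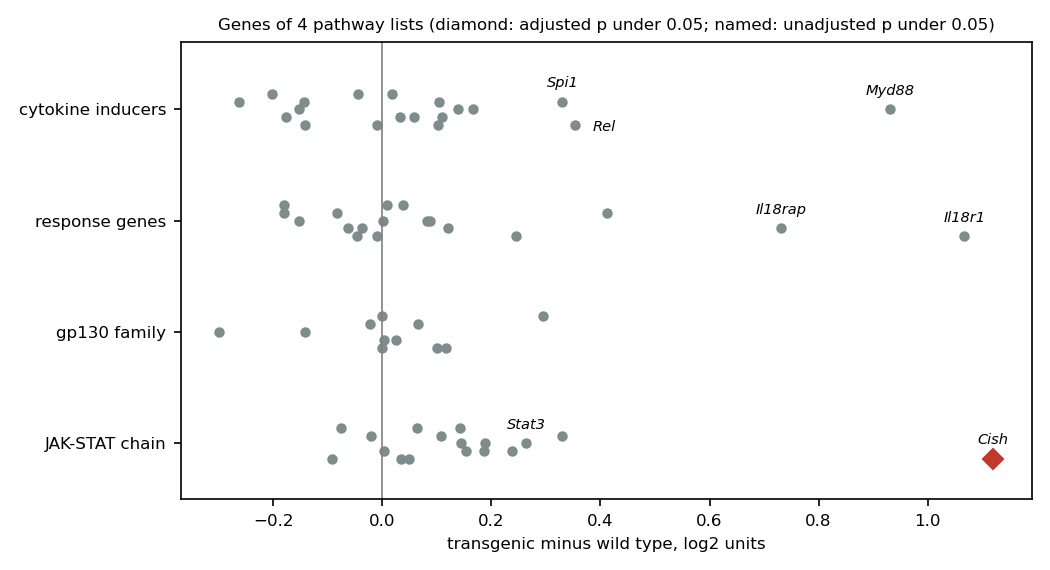
Log2 difference, transgenic minus wild type (horizontal axis), of each measured gene of the JAK-STAT, gp130 family, response gene and cytokine inducer lists; each point is a gene, the red diamond passed the adjusted threshold and labels mark genes with an unadjusted p under 0.05. Cish lies farthest right at 1.12, next to Il18r1 at 1.07 and Myd88 at 0.93.

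The other users of gp130, the ligands and receptors of the IL-6 family, mostly gave signals below the median, and none was called. Of 11 measured genes (14 listed) 0 passed the threshold or an unadjusted p of 0.05 (limma), 3 were above the median level, and the median difference was 0.00. The smallest p belonged to the cytokine Ctf1 (-0.30, SE 0.17) and to Lif (-0.14, SE 0.09), followed by the oncostatin M receptor Osmr (0.10, SE 0.085) and Il6 (0.12, SE 0.11).

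Genes known to respond to IL-12, IL-23 or IL-27 in lymphocytes showed 0 of 18 measured (22 listed) past the threshold and 2 with an unadjusted p under 0.05 (limma), against 6.59% of all tested probe sets, so the count says little about the list. Both were chains of the IL-18 receptor, which IL-12 raises in T and NK cells: Il18rap at 7.12 ± 0.51 against 6.39 ± 0.37 (difference 0.73, SE 0.25, adjusted p = 0.492) and Il18r1 at 7.27 ± 0.92 against 6.21 ± 0.66 (1.07, SE 0.43, adjusted p = 0.682; SD, n = 5 each). With the array set as a block Il18rap differed by 0.85 (SE 0.18) and Il18r1 by 1.31 (SE 0.26). Neither passed (limma, adjusted p = 0.0867 and 0.0713). Within either set the groups of both genes did not overlap. As for Il12a, the sets came from these arrays' own values. The IL-23-linked cytokine genes Il17f and Il17a each differed by -0.18 (SE 0.09 and 0.10). The median difference of the list was 0.00.

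Of genes that induce these cytokines in myeloid cells, 0 of 19 measured (20 listed) passed and 3 were higher at an unadjusted p under 0.05 (limma), a level reached in either direction by 6.59% of all tested probe sets. Myd88, the adaptor of Toll-like receptors, differed by 0.93 (SE 0.27, adjusted p = 0.383), the myeloid factor Spi1 by 0.33 (SE 0.12) and the NF-kappaB subunit Rel by 0.35 (SE 0.14). With the array set as a block Myd88 differed by 1.04 (SE 0.23) and did not pass (limma, adjusted p = 0.0999). Cd40, through which T cells raise IL-12, differed by -0.18 (SE 0.09). The median difference of the list was 0.03, with 11 of 19 differences positive; whether these genes bear on the level of Il12a was not tested.

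The markers of the cells that respond to these cytokines mostly gave signals below the median. Of 10 measured T cell markers (11 listed) 2, and of 9 NK cell markers 2, lay above the median level, and 3 in either list lay below the 20th percentile of all values. Their mean levels overlapped between the groups, at 4.71 to 4.90 against 4.76 to 4.98 for T cells and 4.15 to 4.45 against 4.32 to 4.44 for NK cells (transgenic first). Among them 0 passed the threshold (limma); Nkg7, a granule protein of NK and T cells, differed by -1.17 (SE 0.28, adjusted p = 0.218), with the groups apart, and Klrb1c was 0.79 higher (SE 0.29, adjusted p = 0.557). The adaptor Lat, also present in megakaryocytes, differed by -0.52 (SE 0.33), Cd28 by 0.09 and Cd4 by -0.10, and the NK receptor Ncr1 by -0.19.

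The remaining marker lists are given for comparison. B cell markers (9 of 10 measured) had means of 4.66 to 4.89 against 4.76 to 5.03, with Vpreb1, a pre-B cell receptor chain, at -0.83 (SE 0.27, adjusted p = 0.466), Igll1 at 0.15 and Blnk at 0.19 (limma). Granulocyte markers had means of 5.04 to 6.00 against 4.88 to 5.16, highest on transgenic array 5, with S100a8 at 1.24 (SE 0.58), Mpo at 0.84 (SE 0.48) and Csf3r at 0.28. Erythroid markers had means of 5.91 to 6.22 against 6.07 to 6.42, with Car2 at -0.38, Epor at -0.46 and Tfrc at -0.57 (adjusted p of 0.356 to 0.415). Besides Pf4, the platelet genes Gp5 and Ppbp differed by -1.08 (adjusted p = 0.132) and -0.97 (adjusted p = 0.200). Among HSC markers Procr, an endothelial protein C receptor of stem cells, differed by 1.08 (SE 0.27, adjusted p = 0.247), Kit by -0.47 (SE 0.12) and Mecom by 0.33 (SE 0.10); in the dendritic and macrophage list Cd68 differed by 0.56 (SE 0.27), Clec9a by -0.54 (SE 0.27) and Ciita by -0.13.

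**Figure D4:**
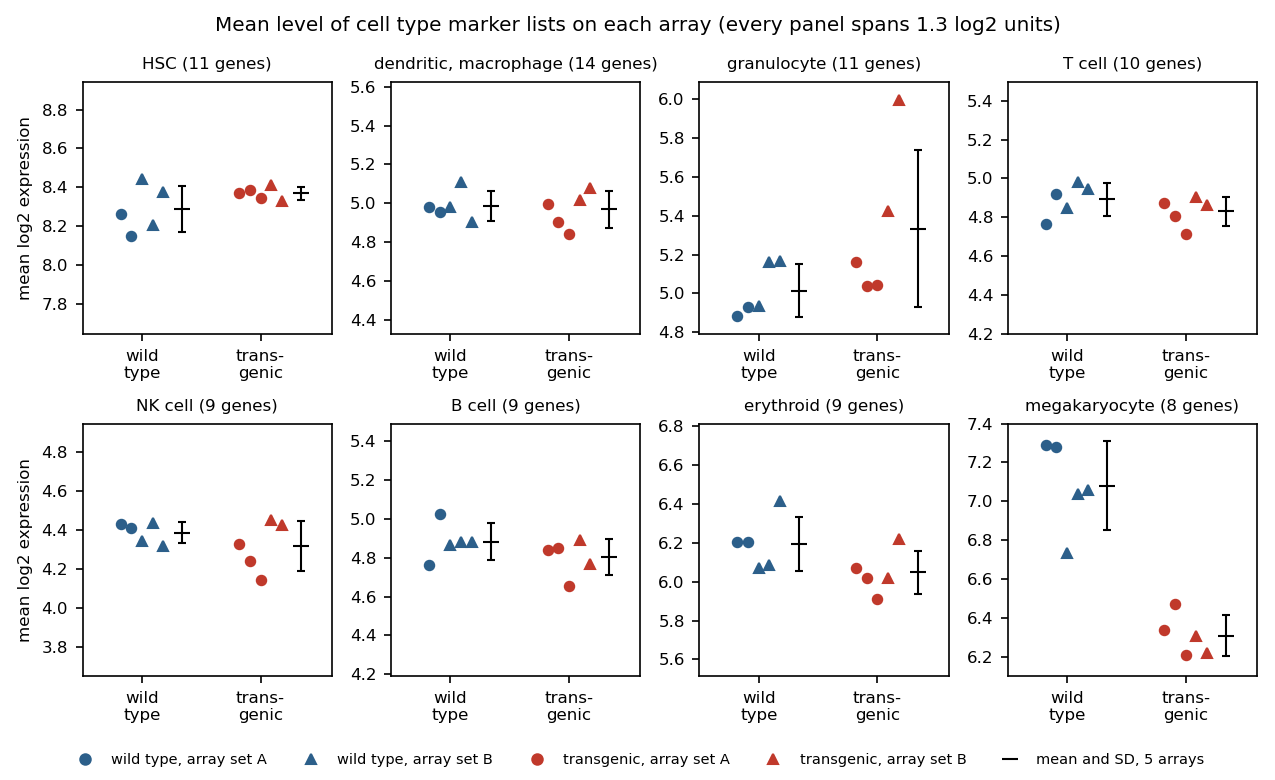
Mean log2 expression of 8 cell type marker lists (vertical axes) on the 5 wild-type (blue) and 5 transgenic (red) arrays, with circles for array set A, triangles for set B, and the mean and SD in black. The megakaryocyte list lies apart between the groups (transgenic 6.21 to 6.47, wild type 6.73 to 7.29), and the dendritic and macrophage list overlaps.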

How the data were processed

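HSC RNA was read on Affymetrix Mouse Gene ST 1.0 arrays, 5 per group, grouped by their titles. RNA was amplified and labelled with NuGEN kits, per the labels' protocols. The authors deposited log2 values; per the submitters' processing notes they used robust multi-array average (RMA), affy and limma, and their versions were not stated in these sources. Values from RMA compress differences between low values. In the main fit no further normalization, filter on signal or pseudocount was applied. Probe sets without a gene name were left out of it. Arrays have no read depth, and their number limits the precision.

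Platform annotation named 21789 probe sets by 1 gene and 1621 by several, and 12146 are unnamed here; 21698 identifiers were found in RefSeq (GRCm38.p6), with 0 symbols changed. The 23410 named probe sets entered 1 fit in limma 3.58.1 (R 4.3.3, lmFit, eBayes, two-sided, Benjamini-Hochberg, threshold 0.05), a procedure tested on simulated data. Members, lists and array sets were chosen with earlier results of these data known. Named genes are the 10 members, list genes past the threshold, the 4 (pathway) or 3 (marker) of smallest p, and the 3 most correlated genes per member above the median level; Zbtb46, Itgax, Xcr1, Cd74 and Itgb3 were named after their values were seen. Alternatives were the replicate or array set as a block, quantile or median scaling, filters, trend, array weights, a floor, averaged probe sets, a threshold of 0.10 and leaving out each array. Fits within each set, and with the set block and no male array, were added after seeing the data.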

Additional observations from a re-analysis of the deposited data

Results flagged for a closer look

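Among 50 named genes, 100 groups of 5 arrays were checked for a single array far from the rest, and 3 stood out; chance gives about 1 in 20. Il12rb1 read 6.03 on wild-type array 1, against 6.43 to 6.47 on the other wild-type arrays. Il27ra read 6.19 on wild-type array 4, against 5.92 to 5.94 on the others. Stat3 read 8.72 on transgenic array 4, the male array, against 8.27 to 8.38 on the other transgenic arrays.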

How the results depend on the processing

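The Il12a difference kept its sign in all 23 other settings, at -1.16 to -0.90 when 1 array was left out (adjusted p of 0.106 to 0.423) and -1.03 to -0.72 otherwise. It passed with the array set as a block (-0.86), and with that block and no male array (-0.94). Without the male array and with no block it was -1.16 and did not pass (limma, adjusted p = 0.106). The count of members past the threshold was 1 instead of 0 in the 2 fits with the set block on both sets. That count was 0 in the other settings, threshold 0.10 included. Il6st (0.55 to 0.71), Il27ra (-0.31 to -0.17), Il27, Ebi3 and Il12rb2 kept their signs in all settings run. Signs turned for Il12b with array weights (0.0046) and when 1 array was left out (-0.0733 to 0.0441), for Il23a with median centring (0.0029), array weights (0.0066), within set A (0.016) and with 1 array out (-0.0969 to 0.0967), for Il12rb1 within set A (0.0432), and for Il23r within set B (-0.14) and with 1 array out (-0.0038 to 0.11); the cause was not tested. The JAK-STAT count was 0 instead of 1 with the replicate block, quantile or median scaling, all probe sets, array weights or a floor, and 0 to 1 with 1 array out. With all probe sets more tests are corrected for, and with 1 array out there are fewer samples. Whether this changed the count was not tested, nor was the cause in the other settings. The other 3 pathway lists had 0 genes past the threshold in all settings run. The filter for levels above the median leaves out Il12b, Il23a, Il12rb2 and Il23r.

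Whether the replicate numbers pair the arrays is not known. Same-numbered arrays had correlations of their deviations from -0.14 to 0.35, and arrays of different numbers were not compared. With the replicate block the Il12a difference was -1.0 (adjusted p = 0.0909), and 0 members passed.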
